A study of Mus musculus with 7 samples.

Results

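Migrating excitatory neurons are the young glutamatergic cells of the embryonic cortex that have left their last division and travel from the germinal zones toward the cortical plate. They were picked from single-cell profiles by 5 genes, and 780 barcodes met the rule of 23005 kept (3.39%). A barcode, which stands for 1 cell in the ideal case, was kept with at least 500 detected genes and at most 10% of its UMIs (unique molecular identifiers, counted transcript molecules) from mitochondrial genes. A member carried at least 4 UMIs summed over Unc5d, Pdzrn3, Rnd2, Nos1 and Zfhx4. It carried 0 UMIs of Eomes, Gad1, Gad2, Gucy1a3, Inhba, Met, Dtx4, Top2a and Mki67. The other 22225 kept barcodes served as the comparison.

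The cortices came from 7 embryos of 1 litter at E18.5, with 1 Seq-Well library (cells and capture beads paired in wells of an array) for each embryo. The 4 mutant embryos (numbered 10, 11, 12 and 17) were Emx1CreERT2;Ash1lfl/fl and the 3 control embryos (14, 15 and 16) were Ash1lfl/fl. The dam had received 100 mg/kg tamoxifen at E10.5, so both groups shared the drug and the floxed alleles and differed in the Cre, a recombinase that tamoxifen activates and that the Emx1 locus drives in dorsal telencephalic progenitors. Ash1l encodes a histone H3 lysine methyltransferase. Emx1-driven recombination reaches excitatory neurons and glia of the dorsal lineage, and interneurons, microglia and vessels are outside it. The sources used here give neither the sex nor a library batch of any embryo.

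Newborn cortical neurons pass through a multipolar stage in the intermediate zone before they take a bipolar shape and climb along radial glial fibres. The 5 genes that chose the members belong to that stage or to neurons close to it. Unc5d encodes a netrin and FLRT receptor of multipolar neurons, and Rnd2 an atypical small GTPase that lets neurons leave the multipolar stage and is a target of the proneural factor NEUROG2. Pdzrn3 encodes a PDZ-domain ubiquitin ligase, Nos1 the neuronal nitric oxide synthase and Zfhx4 a zinc finger homeobox factor. Of the genes that excluded a barcode, Eomes marks intermediate progenitors, Gad1 and Gad2 make GABA in interneurons, Top2a and Mki67 mark dividing cells, and Gucy1a3, Inhba, Met and Dtx4 were taken here as genes of settled upper-layer neurons.

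Of the genes that differed between genotypes in these neurons, Jun, Dusp1 and Gadd45b are rapid-response genes. The 250 bases before their RefSeq starts (GRCm38.p6, the build that mm10 names) are printed because these genes moved together. Hsp90aa1 was looked up too and is named only. Capitals mark matches to TGACGTCA, the cyclic AMP response element, to TGACATCA, the variant of it best known from the Jun promoter, or to TGANTCA, the AP-1 element. Both strands were searched, no 2 matches overlapped, and the lines below give Jun (chr4:95052223-95052472, minus strand), Dusp1 (chr17:26508473-26508722, minus strand) and Gadd45b (chr10:80929841-80930090, plus strand), each 5′ to 3′ on the gene's strand.
Jun: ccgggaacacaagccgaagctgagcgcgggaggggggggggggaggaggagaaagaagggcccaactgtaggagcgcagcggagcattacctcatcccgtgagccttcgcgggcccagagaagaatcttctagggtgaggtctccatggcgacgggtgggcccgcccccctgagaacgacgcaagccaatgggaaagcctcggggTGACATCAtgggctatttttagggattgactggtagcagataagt
Dusp1: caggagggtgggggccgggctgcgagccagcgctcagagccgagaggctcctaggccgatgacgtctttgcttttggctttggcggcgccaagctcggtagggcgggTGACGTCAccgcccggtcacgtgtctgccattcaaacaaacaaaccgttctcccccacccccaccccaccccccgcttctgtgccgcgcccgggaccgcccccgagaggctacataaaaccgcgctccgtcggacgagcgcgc
Gadd45b: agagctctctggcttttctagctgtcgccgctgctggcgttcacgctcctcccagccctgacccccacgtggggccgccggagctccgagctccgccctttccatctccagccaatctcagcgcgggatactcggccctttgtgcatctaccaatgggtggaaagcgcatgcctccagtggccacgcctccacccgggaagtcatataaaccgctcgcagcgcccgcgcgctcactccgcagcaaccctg
The Jun window held TGACATCA, with its first base 45 bases before the start. The Dusp1 window held TGACGTCA, with its first base 143 bases before the start. The Gadd45b window held none of the 3 motifs. Of 32851 such windows in the table, 2.93% held TGACATCA, 1.55% held TGACGTCA and 6.75% held TGANTCA. A match is a string of letters and no measurement of binding.

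Rnd2 chose most of the members. It gave 2595 of their marker UMIs (55.0%) and was detected in 678 members (86.9%), against 23.0% of the other kept barcodes. Unc5d gave 18.4% of the marker UMIs, Pdzrn3 11.7%, Nos1 9.29% and Zfhx4 5.53%. The markers seldom met in full in 1 barcode. A single marker was seen in 155 members (19.9%), and in 140 of these it was Rnd2. Markers numbered 2 in 324 members, 3 in 206, 4 in 81 and 5 in 14. The marker sum was 4 in 260 members, with a median depth of 1892 UMIs. The 543 barcodes just outside, which met every other condition at a sum of 3, had a median depth of 1626 UMIs. A floor on raw UMIs favours deep barcodes. Over all 7 embryos the median depth of members was 1895 to 3489 UMIs, and that of other kept barcodes was 1222 to 2067.

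The exclusions removed about as many barcodes as they left. Of 1555 kept barcodes with a marker sum of at least 4, 340 (21.9%) carried a UMI of Eomes and 366 (23.5%) a UMI of Gucy1a3, Inhba, Met or Dtx4. A further 180 (11.6%) carried Top2a or Mki67 and 156 (10.0%) Gad1 or Gad2. These counts overlap in 222 barcodes, and 780 were left (50.2%). Doublets, that is wells with more than 1 cell, were not removed beyond these exclusions. Libraries shared 96 barcode sequences, 24 of them among kept barcodes and 1 among members.

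The share of members differed as much within each genotype as between them. Members made up 5.81%, 2.46% and 3.62% of kept barcodes in controls 14, 15 and 16 (128, 96 and 155 members). They made up 4.21%, 2.51%, 3.47% and 2.86% in mutants 10, 11, 12 and 17 (89, 79, 129 and 104 members). Control 14 was highest and control 15 lowest, so the mutants lay inside the range of the controls. The mean over the 4 mutants was 3.26% ± 0.748 (SD) and that over the 3 controls 3.96% ± 1.70 (two-sided exact permutation p = 0.514, where 0.0286 is the smallest that 35 splits allow). Without control 14 the difference changed sign, from −0.703 to 0.220 percentage points.

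The 2 embryos with the highest shares, control 14 and mutant 10, also had the deepest members, at 3290 and 3489 UMIs, as the plot of shares and depth shows. The other embryos did not follow that order, since mutant 12, with a share of 3.47%, had the shallowest members (1895 UMIs). With every barcode thinned to 1000 UMIs and the floor lowered to 2, the mutants had a share of 7.78% ± 0.446 and the controls one of 7.43% ± 1.20 (exact permutation p = 0.686). This left out 3778 mutant and 2629 control barcodes with fewer UMIs, and it again reversed the sign.

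**Figure D1:**
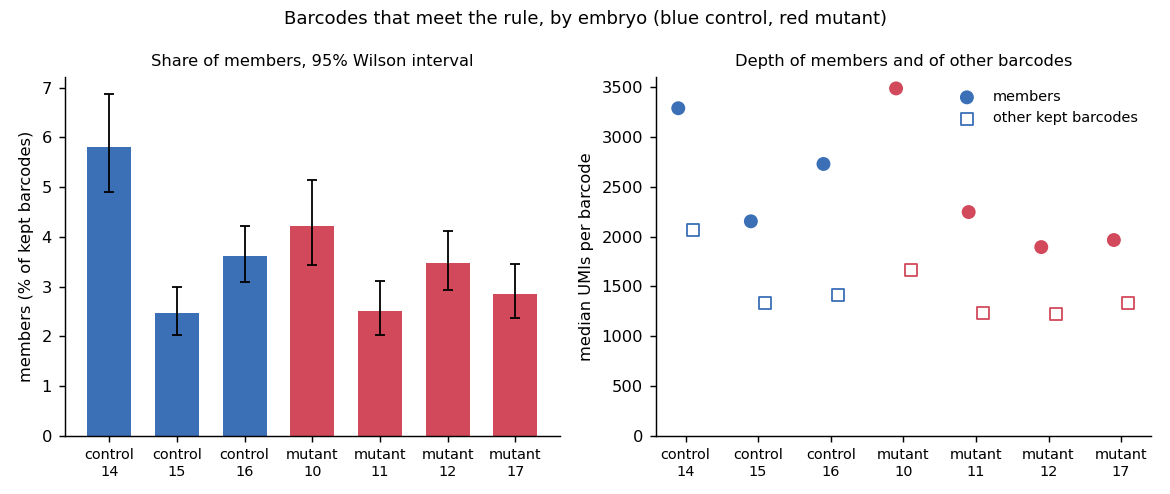
The left panel gives the share of kept barcodes that met the rule in each embryo (percent, bars) with its 95% Wilson interval, which covers counting error only. The right panel gives the median UMIs per barcode, filled for members and open for other kept barcodes. Control 14 had the highest share (5.81%), and members were deeper than other barcodes in all 7 embryos.

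Members carried the profile of young excitatory neurons, as levels of genes outside the rule show. The rule grew out of a clustering of these same cells, so the comparison with other kept barcodes is a description without a test. Levels are CPM, UMI counts scaled to a common total, of the summed barcodes of an embryo, and ratios are means of 7 within-embryo log2 ratios after adding 5 CPM to both sides. Among 3096 genes with at least 50 CPM in the members of every embryo, 362 (11.7%) were higher than in other barcodes in all 7 embryos. Among 3753 genes with at least 50 CPM in the other barcodes of every embryo, 328 (8.74%) were lower in members in all 7.

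Sema3c, a secreted semaphorin, stood highest. Its level in members was 619.7, 698 and 561 CPM in controls 14, 15 and 16 and 487, 617, 603 and 578 CPM in mutants 10, 11, 12 and 17. In the other barcodes it was 154 to 250.3 CPM, so no embryo's members came down to that range, and the mean log2 ratio was 1.70 ± 0.29 (SD over 7 embryos). Neurod1, a basic helix-loop-helix factor of neurons leaving the cell cycle, followed. Neurod1 was at 164, 196 and 219.8 CPM in the members of the controls and at 114, 144, 247 and 179.8 CPM in those of the mutants, against 49.2 to 89.3 CPM elsewhere (log2 ratio 1.39 ± 0.37).

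Receptors for guidance cues were also high. Nrp1, the semaphorin and VEGF coreceptor, had 1018, 999.6 and 921 CPM in members of the controls and 929.9, 861, 806 and 885 CPM in members of the mutants, with 396 to 572 CPM in other barcodes (log2 ratio 1.03 ± 0.23). Its paralog Nrp2 was higher in 6 embryos (213 ± 58.1 against 100 ± 10.1 CPM). In mutant 11 it was not, at 90.1 CPM in members and 102 CPM elsewhere. Epha4, an ephrin receptor, was at 617 ± 105 CPM in members and 294 ± 36.9 CPM in other barcodes. Of the semaphorin, plexin, slit and robo list 11 of 19 genes at 20 CPM or more were higher (median log2 ratio 0.16, against −0.02 over 7914 genes). Plxna2 (log2 ratio 0.55 ± 0.13) and Cntn2 (0.49 ± 0.20), an adhesion molecule of young axons, were among them, and Slit1 (−0.96 ± 0.26) was lower.

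**Figure D2:**
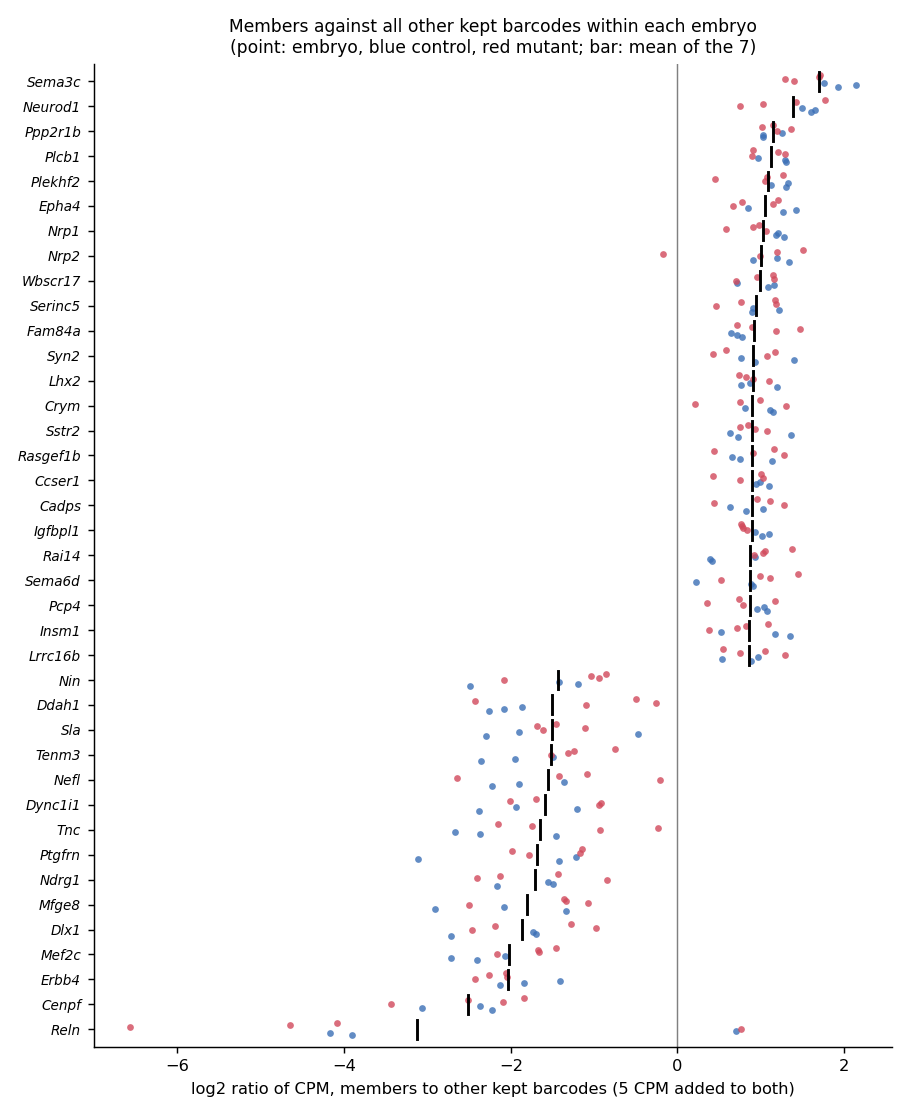
Points are the 7 embryos and bars their mean. The x axis is the log2 ratio of CPM in members to CPM in the other kept barcodes, for 24 of the 25 genes with the highest and the 15 with the lowest mean ratio outside the rule. Sema3c has the highest mean (1.70) and the Reln points split into 2 sets, with 2 embryos above 0.

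Transcription factors of newborn excitatory neurons were higher in 14 of 17 cases, with a median log2 ratio of 0.42. Nfib, a nuclear factor I gene, was at 2469 ± 306 CPM in members and 1372 ± 127 CPM in other barcodes. Neurod6 (599 ± 88.5 against 378 ± 75.3 CPM) and Neurod2 (408 ± 67.2 against 272 ± 48.7 CPM) were higher in every embryo. Exceptions included Sox4 (log2 ratio −0.12 ± 0.10) and Mef2c (−2.02 ± 0.45), an activity-regulated factor of settling neurons. Mef2c was at 70.0 to 169 CPM in the members of the 7 embryos and at 234 to 559.5 CPM elsewhere.

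Genes of radial glia, dividing cells and interneurons were low. None of 13 radial glia genes at 20 CPM or more was higher in members (median log2 ratio −1.16). Neither was any of 15 cell cycle genes (−1.68), and 2 of 12 interneuron genes were (−1.45). The summed level of the radial glia list was 1748 ± 504 CPM in members and 3643 ± 393 CPM in other barcodes. Genes of neighbouring stages were not low as a whole. Of 13 intermediate progenitor genes other than Eomes 9 were higher, and the list summed to 1473 ± 139.8 CPM in members and 1199 ± 66.7 CPM elsewhere, above in 7 of 7 embryos. The deep-layer list, with 6 of 15 genes higher, summed to 1601 ± 178 and 1357 ± 163 CPM, above in 6 of 7. Of 3 Cajal-Retzius genes 2 were higher (median log2 ratio 0.35), and that list summed to 387 ± 499 and 592 ± 113 CPM.

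Of the cytoskeletal genes of radial migration 5 of 25 were higher and the other 20 were not (median log2 ratio −0.10), where 3667 of 7914 genes were higher over all. The list summed to 22302 ± 2159 CPM in members and 23301 ± 1759 CPM elsewhere, and was above the other barcodes in 2 of 7 embryos. Dcx, the microtubule protein of migrating neurons, was at 1480 ± 172 and 1457 ± 137 CPM. Of the reelin pathway, the receptor gene Lrp8 was at 217 ± 37.4 CPM in members and 167 ± 19.3 CPM elsewhere, while the receptor gene Vldlr (54.9 ± 14.4 against 87.4 ± 6.03 CPM) and the adaptor gene Dab1 (179 ± 45.9 against 370.4 ± 59.4 CPM) were lower in all 7 embryos.

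Members were also set beside the stages that flank them. Barcodes with Eomes and without Gad1 or Gad2 numbered 1460. Barcodes with Neurod6 and with Gucy1a3, Inhba, Met or Dtx4, and with none of the other exclusions, numbered 2448. Neurog2, the proneural factor, was at 198 ± 24.0 CPM with Eomes, 55.9 ± 22.2 CPM in members and 27.6 ± 5.24 CPM in the Gucy1a3 group. Sox2, a progenitor factor, ran 162 ± 51.1, 47.9 ± 14.8 and 24.1 ± 7.90 CPM in the same order. Members thus lay between the flanking sets for these progenitor factors, without overlap of the means' SDs. In the opposite direction Tubb3, neuronal tubulin, was at 788 ± 148, 1204 ± 196 and 1835 ± 238 CPM. Of the sets compared here, Sema3c peaked in members, at 207 ± 32.7, 595 ± 64.3 and 142 ± 29.4 CPM. So did Nrp1, at 292 ± 44.8, 917 ± 74.8 and 459 ± 61.8 CPM. Other kinds of excitatory neuron were not set beside the members. Dab1 (187 ± 72.7, 179 ± 45.9 and 570.1 ± 53.9 CPM) and Mef2c (193 ± 96.7, 107 ± 38.3 and 886 ± 173 CPM) set the Gucy1a3 group apart from members. The sets were defined by genes of the rule, so these levels too are a description.

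**Figure D3:**
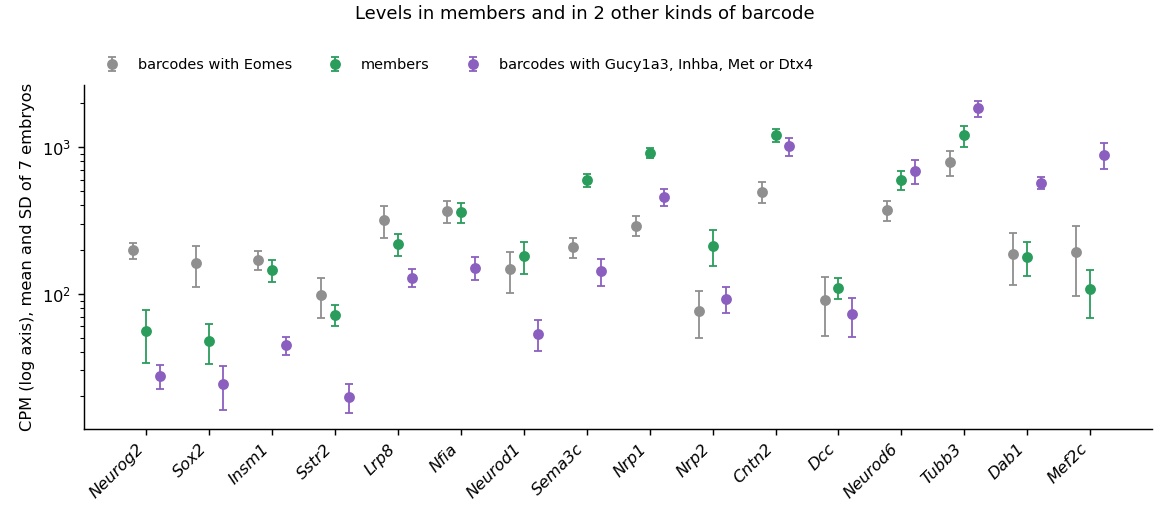
Points are mean CPM over 7 embryos on a log axis and bars the SD, for barcodes with Eomes, for members, and for barcodes with Gucy1a3, Inhba, Met or Dtx4. Neurog2 and Sox2 run down from left to right, Tubb3 runs up, and Sema3c and Nrp1 peak in members.

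The nitric oxide and cGMP genes outside the rule did not stand high as a list. Of 8 at 20 CPM or more, 3 were higher in members (median log2 ratio −0.23, against −0.02 over 7914 genes). The list summed to 887 ± 72.1 CPM in members and 947 ± 33.0 CPM in other barcodes. Gucy1b3, which encodes the partner subunit of the soluble guanylate cyclase subunit excluded by the rule, was at 19.3 ± 7.99 CPM in members and 116 ± 26.3 CPM in the Gucy1a3 group. Ddah1, which clears an inhibitor of nitric oxide synthases, was at 44.8 ± 28.4 CPM in members and 118 ± 15.3 CPM in other barcodes. Of the netrin family, Dcc (110.1 ± 18.1 against 70.1 ± 14.4 CPM) and its relative Neo1 (339 ± 35.1 against 251 ± 27.0 CPM) were higher in all 7 embryos. Unc5c, a paralog of the marker Unc5d, was lower in all 7 (7.87 ± 5.21 against 19.9 ± 3.53 CPM).

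The members were not uniform. Clustering them without the 14 rule genes gave 4 groups, described here without a test. Group 1 held 494 members (63.3%) at a median of 2008 UMIs and was led by upper-layer neuron factors, with Pou3f2 at 567 CPM against 100.3 CPM in the other members and Cux2 at 218 against 64.4 CPM. It carried the marker set most fully, with Unc5d at 563 CPM, Pdzrn3 at 361 CPM and Zfhx4 at 162 CPM. Group 2 held 161 members (20.6%) at a median of 3607 UMIs and rested on Rnd2, at 1179 CPM, with Unc5d at 58.7 CPM, Pdzrn3 at 32.6 CPM and Zfhx4 at 10.4 CPM. It was led by Crym (853 against 90.2 CPM), a thyroid hormone binding protein, and by Grp, the gastrin-releasing peptide gene (224 against 15.5 CPM). Guidance genes split between these groups. Group 2 had Sema3c at 1031 CPM, Nrp1 at 1669 CPM and Nrp2 at 531 CPM, while group 1 had 485, 659 and 33.9 CPM of them. The Nrp2 level of group 1 was thus below the one given above for other kept barcodes. Group 1 had more of the slit receptor gene Robo2 (711 against 63.9 CPM in group 2) and of the plexin genes Plxna4 (382 against 130.5 CPM) and Plxna2 (628 against 472 CPM).

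The leading genes of the smaller groups went against the name. Group 3 held 94 members (12.1%), led by Reln (1875 against 11.7 CPM), Mef2c (426 against 41.0 CPM) and Trp73 (84.2 CPM, and 0 in the other members), which are genes of Cajal-Retzius and settled neurons, and by haemoglobin genes. Reln was seen in 15 of 379 control and 20 of 401 mutant members. A single control member carried 282 of the 359 Reln UMIs in controls, and 1 mutant member 259 of 468. Group 3 also kept genes of excitatory neurons, with Neurod2 at 337 against 439 CPM in the other members, Neurod6 at 395 against 640.1 CPM and Tbr1 at 129 against 111 CPM. Group 4 held 31 members (3.97%), led by glial genes, with Fabp7 at 6559 against 146 CPM, Slc1a3 at 1337 against 34.1 CPM and Aldoc at 757 against 4.52 CPM.

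Group 2 made up 24.2%, 28.1% and 21.3% of members in controls 14, 15 and 16. In mutants 10, 11, 12 and 17 it made up 15.7%, 17.7%, 17.8% and 18.3%, below all 3 controls. Group 4 made up 2.34%, 3.12% and 2.58% in the controls and 5.62%, 5.06%, 6.20% and 3.85% in the mutants, above all 3 controls, with 3 to 8 members in an embryo. Groups 1 and 3 overlapped between genotypes. These shares were not tested, because the genes that define the groups also enter the genotype comparison.

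**Figure D4:**
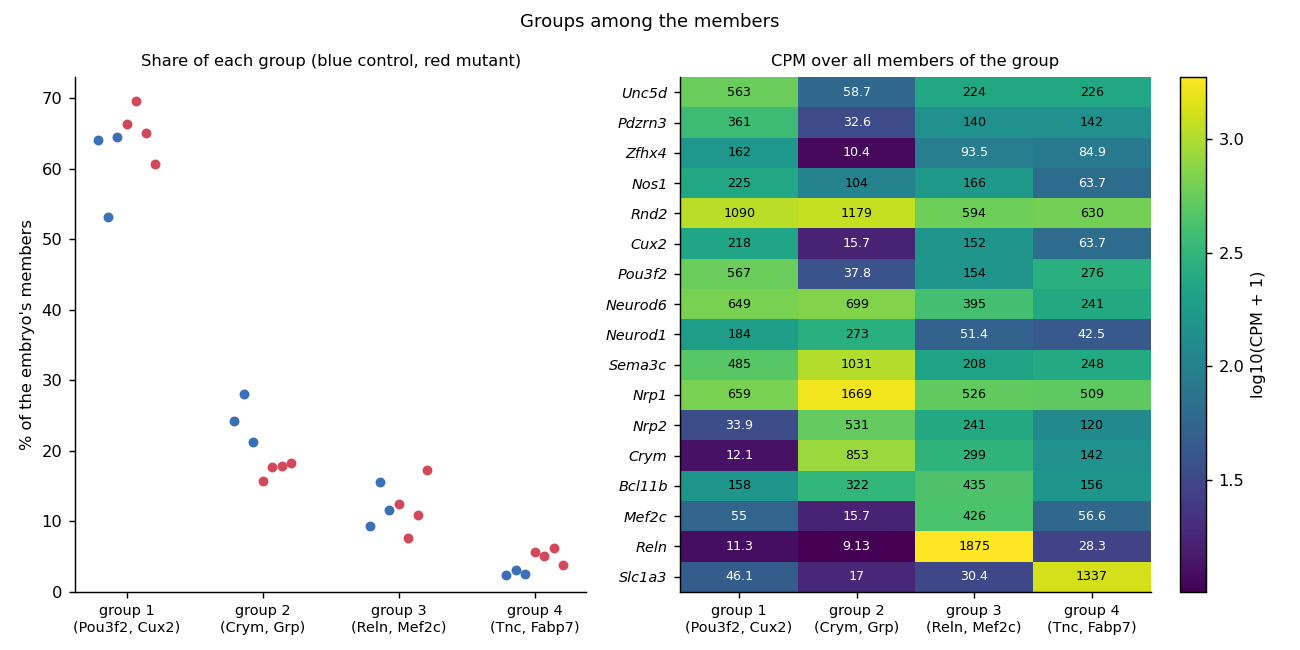
The left panel gives each group's share of the members of an embryo (percent, blue control, red mutant). The right panel gives CPM over all members of a group for the 5 rule markers and 12 other genes, with colour on a log10 scale. Group 2 is low in Unc5d, Pdzrn3 and Zfhx4 and high in Sema3c and Nrp1, and group 3 and group 4 are led by Reln and Slc1a3.

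For the genotype comparison, UMIs of the members were summed per embryo (221885 to 559985 UMIs) and tested with the quasi-likelihood test of edgeR. CPM values from here on are scaled by its TMM factors, and p-values are Benjamini-Hochberg adjusted over all genes fitted. An SE given with an edgeR value is the absolute log2 value divided by the square root of the test's F statistic. Ash1l, the targeted gene, was at 190.5, 275 and 235 CPM in controls 14, 15 and 16. In mutants 10, 11, 12 and 17 it was at 185, 167, 176 and 118 CPM. Every mutant lay below every control, with a log2 fold change of −0.50 (SE 0.19). Ash1l did not pass (edgeR adjusted p = 0.701). The floxed part of Ash1l is not given in the sources used here, and the beads capture poly(A) ends, so tags outside the deleted part would not report recombination. Esr1 had 12 UMIs in 401 mutant members (9.92 CPM) and 0 UMIs in 379 control members. Set against a floor of 3 UMIs over the control members (2.20 CPM), the mutant level was 4.51-fold that floor. These values pool the members of a genotype, so the spread between embryos and the counting error of the 12 UMIs are not in them. In all kept barcodes, summed per embryo, Esr1 had a log2 fold change of 3.43 (SE 0.42, edgeR adjusted p = 0.00310). CreERT2 contains part of an oestrogen receptor, and the counts do not separate reads of the transgene from those of the mouse gene Esr1.

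Of 6186 genes tested, 6 passed the threshold of 0.05 (0.0970%), 4 lower and 2 higher in mutants. At an unadjusted p under 0.05 there were 396 genes (6.40%), of which 215 were higher (3.48%) and 181 lower (2.93%). The genotypes did not overlap in 227 genes with higher (3.67%) and 224 genes with lower levels in mutants (3.62%). The genes that fell include 3 rapid-response genes and a chaperone. Jun, an AP-1 transcription factor, had 1689, 2181 and 1293 CPM in controls 14, 15 and 16 and 1095, 947, 838 and 947 CPM in mutants 10, 11, 12 and 17. The highest mutant stood below the lowest control. Jun fell by 0.84 on the log2 scale (SE 0.16; edgeR adjusted p = 0.0392).

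Dusp1, a phosphatase that switches off MAP kinases, had 163, 215 and 106 CPM in the controls and 53.6, 52.6, 73.2 and 53.5 CPM in the mutants. It fell by 1.42 on the log2 scale (SE 0.25; edgeR adjusted p = 0.0392), again with no overlap. Gadd45b, a stress sensor of the GADD45 family, had 87.5, 115 and 90.3 CPM in the controls. Its mutant values of 32.1, 38.2, 40.3 and 38.2 CPM were all lower, and it fell by 1.37 on the log2 scale (SE 0.27; edgeR adjusted p = 0.0392). Hsp90aa1, the inducible cytosolic HSP90 chaperone, had 803, 991 and 851 CPM in the controls and 485, 655, 450.2 and 469.6 CPM in the mutants. It fell by 0.78 on the log2 scale (SE 0.16; edgeR adjusted p = 0.0482). How reads shared by near-identical copies were counted is not given, so Hsp90aa1 is uncertain as a single gene.

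Of the 2 genes that rose, Spr encodes sepiapterin reductase, an enzyme of tetrahydrobiopterin synthesis. Spr had 33.0, 19.9 and 26.1 CPM in controls 14, 15 and 16 and 67.0, 81.3, 80.5 and 91.6 CPM in mutants 10, 11, 12 and 17. It rose by 1.52 on the log2 scale (SE 0.30; edgeR adjusted p = 0.0392). It was also higher in all kept barcodes summed (log2 fold change 1.31; adjusted p = 0.00242), where 3 of 12893 genes passed (0.0233%), and its effect in members was not shown to differ from that elsewhere (difference 0.23, SE 0.32). Spr lies on chromosome 6 at 85130176 to 85137766 (mm10), beside Emx1 at 85187438 to 85204462, the locus that carries the Cre. Emx1 itself had a log2 difference of 0.05 (SE 0.24) and did not pass (edgeR adjusted p = 0.988).

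Ednrb encodes an endothelin receptor that is abundant in glia. It had 21.4, 15.9 and 12.0 CPM in the controls and 77.7, 38.2, 73.2 and 64.9 CPM in the mutants, and rose by 1.95 on the log2 scale (SE 0.37; edgeR adjusted p = 0.0392). Few barcodes carried it. The mutants had 74 Ednrb UMIs in 17 of 401 members, 28 of them in 1 member, and the controls had 21 UMIs in 8 of 379 members. Of those 17 members 14 had at least 2 UMIs summed over the radial glia genes Slc1a3, Mfge8, Aldoc, Sox2, Hes1 and Hes5. Ednrb was at 616 CPM in group 4, the glial-led one, and at 3.29 CPM in the other members. Without members with at least 2 such UMIs, or without groups 3 and 4, Ednrb was too low to be tested.

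Members with at least 2 UMIs of those 6 genes made up 8.59% to 9.38% of members in the controls and 5.77% to 11.2% in the mutants, and 18.0% of other kept barcodes. Of 12 tested radial glia genes, 10 had a higher and 2 a lower level in mutants (median log2 fold change 0.55, against 0.01 over all genes tested), 5 were higher at an unadjusted p under 0.05 and 0 passed. The genotypes did not overlap in 1 of the 12 with a higher and 2 with a lower level in mutants. Over all genes tested these shares were 3.67% and 3.62%. Slc1a3, a glutamate transporter of glia, had 81.6, 75.6 and 102 CPM in the controls and 145, 177, 146 and 111 CPM in the mutants (a log2 difference of 0.71, SE 0.22; edgeR adjusted p = 0.479). The summed level of all 15 radial glia genes was 1283 to 1516 CPM in the members of the controls and 1563 to 2803 CPM in those of the mutants, before TMM scaling. Without members with at least 2 such UMIs 0 genes passed by edgeR, and Jun (log2 fold change −0.94) and Dusp1 (−1.30) both had an adjusted p of 0.0597. Without groups 3 and 4, Jun fell by 0.98 on the log2 scale (edgeR adjusted p = 0.00888) and Dusp1 by 1.45 (adjusted p = 0.0217), while Hsp90aa1 had an adjusted p of 0.0594, Gadd45b of 0.224 and Spr of 0.226.

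**Figure D5:**
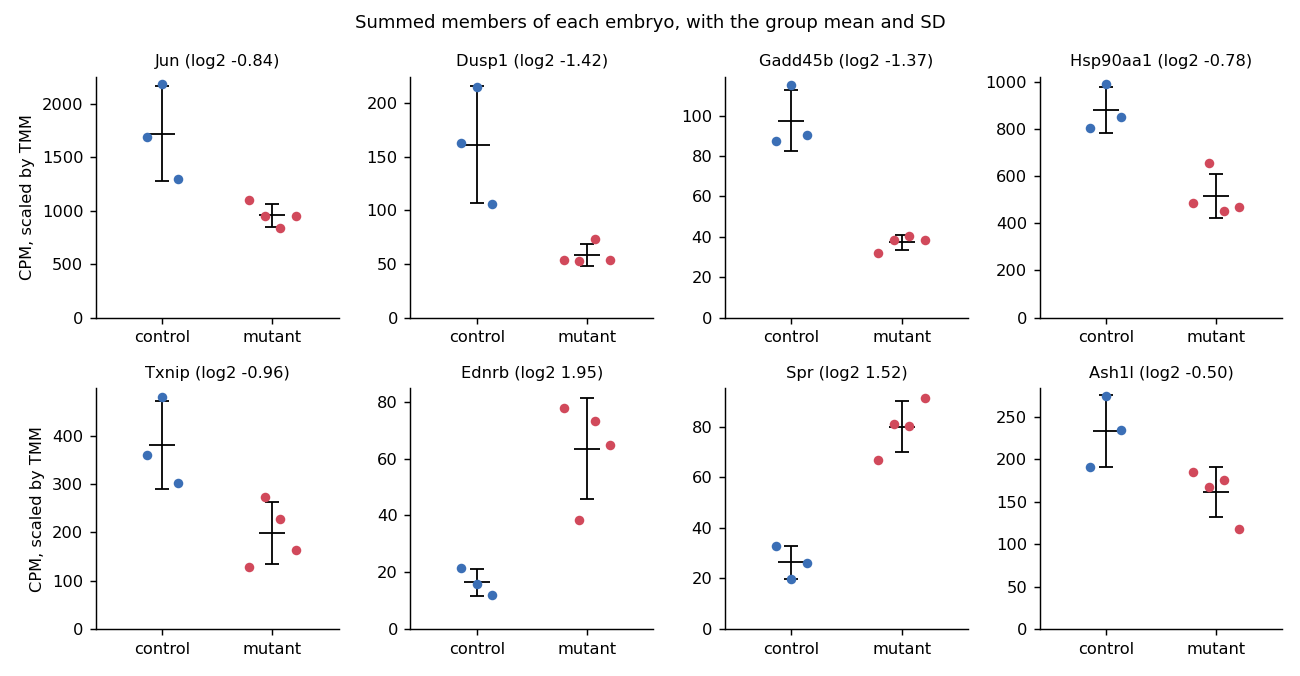
Each point is an embryo (CPM of its summed members, scaled by TMM), with the group mean and SD in black, and the log2 fold change of mutants against controls above each panel. Jun, Dusp1, Gadd45b and Hsp90aa1 are lower and Ednrb and Spr higher in mutants without overlap, while Txnip and Ash1l did not pass.

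Of 17 tested immediate early genes 11 had a lower and 6 a higher level in mutants (median log2 fold change −0.39), where 3022 of 6186 genes were lower over all. The 11 include Jun and Dusp1, the 2 that passed. At an unadjusted p under 0.05, 7 were lower, again with both, and 1 was higher. Fos, the partner of JUN in AP-1, had 680.2, 1031 and 885 CPM in the controls and 565, 459, 721 and 328 CPM in the mutants (a log2 difference of −0.73, SE 0.20; edgeR adjusted p = 0.329), and its groups overlapped. The activity-dependent factor Npas4 stood on the other side, at 29.2, 47.8 and 56.2 CPM and 112, 52.6, 95.2 and 107 CPM (a log2 difference of 1.10, SE 0.29; edgeR adjusted p = 0.313). Of 15 tested heat shock and unfolded protein genes 12 had a lower level in mutants (median −0.35) and 1 passed, Hsp90aa1. At an unadjusted p under 0.05, 5 were lower and 0 higher. Hspa8, a constitutive chaperone, had 1246, 907 and 913 CPM in the controls and 798, 650.2, 754 and 783 CPM in the mutants (a log2 difference of −0.45, SE 0.15; edgeR adjusted p = 0.600).

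The median mitochondrial share of the members' UMIs was 4.42%, 5.61% and 4.22% in controls 14, 15 and 16 and 4.26%, 3.91%, 3.41% and 3.66% in mutants 10, 11, 12 and 17. The means were 4.75% ± 0.751 and 3.81% ± 0.363 (n = 3 and 4; exact permutation p = 0.0857), and mutant 10 lay above control 16. In other kept barcodes the means were 4.85% ± 0.786 and 3.83% ± 0.376 (exact permutation p = 0.0857). With the ceiling on that share at 5%, the log2 fold changes were −0.74 for Jun and −1.07 for Dusp1, neither of which passed (edgeR adjusted p = 0.288 for both), and Ednrb was the 1 gene that did. Gm26924, an RNA that takes reads of ribosomal sequence, held 7.44% to 8.45% of member UMIs in controls and 9.06% to 11.3% in mutants. The part of either measure in the falls was not tested.

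The calls changed when single embryos were left out. Leaving out an embryo also removes a replicate, and the parts of the embryo and of the smaller number were not tested. With 1 embryo left out, 0 genes passed without control 15, mutant 10 or mutant 12. There was 1 without control 14 or mutant 17, there were 3 without mutant 11 and 5 without control 16. These were in part other genes. The 1 gene called without control 14 or without mutant 17 was none of the 6, Ednrb and Hsp90aa1 were among the 3, and Jun and Dusp1 were the only ones of the 6 among the 5. DESeq2 called 5 genes and limma voom 2, Jun and Hsp90aa1. Both tools gave Jun a fall close to the edgeR value, of 0.84 (DESeq2 adjusted p = 2.0e-04) and 0.81 (voom adjusted p = 0.0286).

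Genes of migration and identity did not pass. Of 24 tested cytoskeletal genes of radial migration 9 were higher and 15 lower (median log2 fold change −0.11), with 1 at an unadjusted p under 0.05, the actin cross-linker Flna. Flna had 171, 175 and 112 CPM in the controls and 257, 225, 274 and 225 CPM in the mutants (a log2 difference of 0.71, SE 0.19; edgeR adjusted p = 0.313). Of 16 semaphorin, plexin, slit and robo genes 10 were higher and 6 lower (median 0.11), with 3 higher at an unadjusted p under 0.05. One of them was the plexin gene Plxna1, at 62.2, 47.8 and 46.2 CPM in the controls and 67.0, 90.8, 106 and 68.7 CPM in the mutants (a log2 difference of 0.64, SE 0.27; edgeR adjusted p = 0.763). Sema3c had a log2 fold change of −0.13 (SE 0.15; edgeR adjusted p = 0.902). Of the 9 reelin pathway genes and the 9 netrin, FLRT and Unc5 family genes tested, 0 passed by edgeR and 0 had an unadjusted p under 0.05.

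Among 17 newborn neuron factors 8 were higher and 9 lower (median log2 fold change 0.00). Zbtb18, a transcriptional repressor needed for radial migration, had 781, 716 and 707 CPM in the controls and 1079, 947, 882 and 955 CPM in the mutants (a log2 difference of 0.39, SE 0.15; edgeR adjusted p = 0.677). Of 11 upper-layer genes 6 were higher, and of 13 deep-layer genes 9 were lower (median −0.20). Of 26 tested genes of histone H3 lysine methylation 13 were higher and 13 lower (median 0.00), with 5 higher and 1 lower at an unadjusted p under 0.05. Rbbp5, a core subunit of H3K4 methyltransferase complexes, had the smallest p of them, with 27.2, 11.9 and 24.1 CPM in the controls and 77.7, 43.0, 58.6 and 49.6 CPM in the mutants (a log2 difference of 1.37, SE 0.36; edgeR adjusted p = 0.313).

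The 5 rule markers are conditioned on within members, so there they have values only. Rnd2 had 1038, 1158 and 1016 CPM in the members of controls 14, 15 and 16 and 761, 1081, 1438 and 1378 CPM in those of mutants 10, 11, 12 and 17. Unc5d had 253, 338 and 422 CPM and 378, 435, 436 and 359 CPM. Both overlapped between genotypes. In all kept barcodes summed, which do not depend on membership, the log2 fold changes were 0.05 for Rnd2, 0.06 for Unc5d, 0.23 for Pdzrn3, 0.01 for Nos1 and 0.18 for Zfhx4, and 0 of the 5 passed (edgeR adjusted p from 0.589 to 0.990, and 0 with an unadjusted p under 0.05).

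Whether a genotype difference was particular to the members was tested as the difference between the effect in members and that in all other kept barcodes, within embryos. Of 12110 genes 6 passed (0.0495%), and these were Ednrb, Ntrk2, Igfbp7, Aldh1l1, Txnip and Hbb-bt. Ntrk2, the BDNF receptor, had 46.6, 95.5 and 70.3 CPM in the members of the controls and 155, 148, 98.8 and 115 CPM in those of the mutants, and its effect was larger in members by 1.03 on the log2 scale (SE 0.22; edgeR adjusted p = 0.0375). In all kept barcodes it had a log2 fold change of −0.08. Of the 63 mutant members with Ntrk2, 17 had at least 2 radial glia UMIs. Without groups 3 and 4 the change of Ntrk2 in members was 0.48 (SE 0.39), where it had been 0.95 (SE 0.25). The Ntrk2 call was lost without control 14 (edgeR adjusted p = 0.372) or mutant 10 (adjusted p = 0.213). Txnip, a thioredoxin-binding protein of glucose sensing, had 361, 481 and 303 CPM in the controls and 129, 273, 227 and 164 CPM in the mutants, with a log2 difference of the effects of −0.73 (SE 0.16; edgeR adjusted p = 0.0375). The Txnip call was lost without control 14, control 15, mutant 10 or mutant 17 (edgeR adjusted p = 0.0749, 0.107, 0.157 and 0.0513). The other 4 rested on few barcodes. One mutant member held 37 of the 41 Igfbp7 UMIs in mutants and 1 control member 466 of the 922 Hbb-bt UMIs in controls. Aldh1l1, a folate enzyme of astroglia, had 43 UMIs in 18 mutant members and 7 UMIs in 7 control members.

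Jun, Dusp1, Gadd45b and Hsp90aa1 did not pass that test, with log2 differences of the effects of −0.42, −0.87, −0.67 and −0.45 (edgeR adjusted p = 0.208, 0.182, 0.979 and 0.182). All 4 genes were also lower in mutants in all kept barcodes summed. Their log2 fold changes there were −0.45, −0.61, −0.75 and −0.39, and none passed (edgeR adjusted p = 0.322, 0.322, 0.257 and 0.322). Set against the 2448 barcodes of the Gucy1a3 group alone, 22 of 8724 genes passed (0.252%), 18 with a lower effect in members, given here on the log2 scale. Jun was among them (−0.77, SE 0.13; edgeR adjusted p = 0.00101), as were Dusp1 (−1.27, SE 0.27; adjusted p = 0.0166), Hsp90aa1 (−0.67, SE 0.13; adjusted p = 0.00409) and Txnip (−0.97, SE 0.21; adjusted p = 0.0166). Gadd45b was not (−0.43, SE 0.34; adjusted p = 0.942). The chaperone genes Hsph1 (−0.70) and Hspa5 (−0.49), the AP-1 gene Jund (−0.67) and the stress factor gene Atf4 (−0.58) passed on the same side. Sema3c passed too (−0.64, edgeR adjusted p = 0.0349). Within members the changes of several of these genes did not pass. By edgeR the adjusted p there was 0.0821 for Txnip, 0.763 for Hsph1 and 0.534 for Hspa5. It was 0.791 for Jund, 0.795 for Atf4 and 0.902 for Sema3c. Haemoglobin genes, whose UMIs sat in few members and whose near-identical copies may share reads, were among the 22 as well.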

How the data were processed

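The authors deposited 1 table of raw counts per library, genes by barcodes, in whole UMIs that were not normalised. Per the labels' protocols, cortices were dissociated with papain and run on Seq-Well arrays. Per the submitters' processing notes, reads were aligned with STAR to mm10. Versions, annotation, UMI collapsing and barcode selection: not given in the sources used here. The tables held 50191 barcodes, 23413 gene symbols and 62753750 UMIs, 7083225 to 11859209 per library, and every row named a gene.

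Members were found by the rule given above, and UMIs were summed per embryo. The main test was edgeR 4.0.16 (TMM, filterByExpr, quasi-likelihood, two-sided) in R 4.3.3, tested on simulated data first; alternatives were DESeq2 1.42.0, limma 3.58.1 with voom, other filters and other rules. The difference of effects had the embryo as a fixed term. The embryo was the replicate, so p-values measure the spread between embryos of 1 litter. Shares and depths were compared by exact permutation tests. The 14 rule genes were left out of tested counts. Members were grouped in scanpy 1.11.5 (1000 variable genes, 20 components, Leiden resolution 0.5). Intervals and floors cover counting error only.

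Genes were named by rule: every gene that passed, the 12 with the next smallest p, up to 4 of each list by p, and the 25 highest and 15 lowest against other barcodes. The members and gene lists were chosen with earlier results of these data known. Of 394 listed symbols 3 had no row. Promoter windows came from RefSeq, with 3 of 4 genes matched. Some genes that met these rules are not reported here.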

Additional observations from a re-analysis of the deposited data

Results flagged for a closer look

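Of 33 measures checked for a mutant embryo standing apart from the other 3, 2 were outlying, a number that chance alone can give, since about 1 in 20 such checks does so. Dusp1 stood at 73.2 CPM in mutant 12, above 52.6 to 53.6 CPM in the other mutants and below the lowest control at 106 CPM. Hsp90aa1 stood at 655 CPM in mutant 11, above 450.2 to 485 CPM in the others and below the lowest control at 803 CPM.

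For 6 genes the genotype effect in members differed from that in all other kept barcodes by the edgeR test of the difference (log2 scale, members minus others). It was 1.86 for Ednrb (adjusted p = 0.0222), 1.03 for Ntrk2, 4.54 for Igfbp7, −0.73 for Txnip, 2.44 for Aldh1l1 and −1.55 for Hbb-bt (adjusted p = 0.0375 for each of the last 5). At most 11 Ntrk2 UMIs sat in 1 member. The Igfbp7 and Hbb-bt UMIs sat mostly in 1 or a few members.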

How the results depend on the processing

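No paired analysis was possible because mutant and control embryos share no replicate number. The 3 alternatives with at least 2 markers, without members with radial glia UMIs and without groups 3 and 4 were chosen after seeing the data. The difference in the share of members was −0.703 percentage points and ranged from −1.45 to 0.220 with 1 embryo left out; it was 0.350 after thinning, and the sign held under the other 11 alternatives that kept every embryo. The difference in depth ranged from −688 to −42.9 UMIs with 1 embryo left out and kept its sign throughout.

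The count of genes called in members, 6, became 0 to 5 with 1 embryo left out, in part other genes. There were 2 with a marker sum of at least 3 and 0 with at least 5, 1 with the mitochondrial ceiling at 5%, 2 without the condition on Gucy1a3, Inhba, Met and Dtx4, 0 with at least 2 markers, 0 without members with radial glia UMIs (Jun and Dusp1 had an adjusted p of 0.0597), 2 without groups 3 and 4, 0 with sums thinned to 221885 UMIs, 34 without the filter on low counts and 2 with voom. The narrower rules and the thinning hold fewer UMIs. The rule with a sum of at least 3 held 1323 members, against 780. The rule without the condition on Gucy1a3, Inhba, Met and Dtx4 held 989. The cause of the changed counts was not tested. DESeq2 gave no adjusted p for Spr, Ednrb and Gadd45b. Calls held under 10 of 22 alternatives for Jun, 9 of 22 for Hsp90aa1, 8 of 22 for Dusp1, 6 of 21 for Gadd45b, 6 of 17 for Ednrb and 5 of 21 for Spr, with 0 changes of sign.

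For the difference from other barcodes, the count of 6 became 3 to 19 with 1 embryo left out, 15 without the filter and 22 against the Gucy1a3 group. Calls held under 8 of 10 alternatives for Ntrk2, 7 of 10 for Ednrb and Hbb-bt, 7 of 9 for Igfbp7, 6 of 10 for Txnip and 5 of 10 for Aldh1l1. In all kept barcodes, the count of 3 became 3 to 26 with 1 embryo left out, 165 without the filter and 21 with DESeq2. Signs of markers near 0 turned there, with 1 embryo left out giving −0.04 to 0.07 for Nos1, −0.03 to 0.12 for Rnd2 and −0.05 to 0.36 for Zfhx4. Nos1 turned to −0.02 without control 14 and without the filter, −0.03 without control 15 and −0.04 without mutant 17. Rnd2 turned to −0.01 without control 15 or mutant 17 and −0.03 without mutant 12, and Zfhx4 to −0.03 without control 14 and −0.05 without mutant 12. With 221885 to 559985 UMIs per embryo, genes below a few UMIs per sum could not be tested.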

Other observations

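Markers of other cell types gave these summed levels in members, as CPM before TMM scaling. The 8 Cajal-Retzius genes ran from 90.0 to 1338 CPM in mutants and from 105 to 830.0 CPM in controls, highest in mutant 10 and control 16. The 8 erythroid genes ran from 139.7 to 4555 CPM and from 76.3 to 5588 CPM. The 10 microglia genes were at 0 in 3 mutants and 1 control and reached 319.9 CPM in control 15. The 10 endothelial and mural genes ran from 0 to 254 CPM in mutants and from 3.64 to 8.93 CPM in controls, and the 8 meninges genes from 0 to 559 CPM and from 0 to 49.3 CPM. Each of these ranges overlapped between genotypes. Xist, the X-inactivation transcript, was at 0 CPM in the members of 1 embryo of each genotype, control 15 and mutant 11, and at 645 to 1383 CPM, scaled by TMM, in the other 5.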
